A study of Mus musculus with 6 samples.

Results

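Chromatin accessibility was examined at 9 genes that regulate or mark endoderm: Foxa1, Foxa2, Sox17, Sox7, Hhex, Cxcr4, Cer1, Hnf4a and Pdgfra. An accessible interval was assigned to one of them when the protein-coding gene end nearest to its midpoint, within 100 kb, was an end of that gene. This gave 147 of the 258093 intervals in 3 deposited peak lists, which merged into 77 of 131410 regions, at 9 of 21887 protein-coding genes. The rule used no accessibility value.

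The lists came from ATAC-seq, which maps open chromatin through cuts made by a transposase, on E14 cells, a single line of mouse embryonic stem cells from a blastocyst. In the 2iL group, the cells were kept in N2B27, a serum-free medium, with 3 µM CHIR99021 (a GSK3 inhibitor), 1 µM PD0325901 (a MEK inhibitor) and the cytokine LIF. In the other 2 groups the same cells were plated in 2iL, which was exchanged on the next day for N2B27 alone, and were collected 48 h or 96 h later. No endoderm-inducing agent is named in the labels. Each group had 2 samples of 100000 live cells, but the authors gave both samples 1 common peak list, so each group had 1 value, no spread between replicates was measured and no test between groups was possible. The intervals given below cover counting error only. The lists held 91228, 88810 and 78055 intervals for 2iL, 48 h and 96 h. Pou5f1, Sox2 and Nanog, which define pluripotent cells, each had a listed interval within 1 kb of a gene end in all 3 lists. So did 67.6%, 69.7% and 68.0% of all protein-coding genes in the 2iL, 48 h and 96 h lists. Of their 34 regions in 2iL, 16 were absent at 96 h (47.1%, against 43.1% of all regions near genes). Of their 28 at 96 h, 10 were absent in 2iL (35.7%, against 32.6%). These are statements on accessibility, as these lists carry no measure of transcription, and a region need not act on the gene it was assigned to.

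Endoderm is the germ layer that forms the lining of the gut and organs such as liver and pancreas, and an earlier, extraembryonic endoderm forms the yolk sac. FOXA proteins are forkhead factors that can bind their sites in compact chromatin, and SOX17, SOX7, GATA factors and HNF4A also act in endoderm. CXCR4 and PDGFRA are surface receptors often used to sort definitive and primitive endoderm, and CER1 is a secreted antagonist of Nodal, BMP and WNT signals from the anterior endoderm. Cells that leave 2iL without further signals tend towards neural fates.

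The promoters differed in CpG content and, with it, in whether an interval was listed over them. RefSeq windows on GRCm38.p6, running from 250 bases before to 50 after a start, were at hand for 7 of the 9 genes, with 10 windows in all. The 250 bases before the start are shown for 1 window of each gene, 5′ to 3′ on the gene's strand, with every CpG in capitals. The first 4 belong to windows under an interval in all 3 lists, and the last 3 to windows under none.
Foxa1 (chr12:57546112-57546361, minus strand): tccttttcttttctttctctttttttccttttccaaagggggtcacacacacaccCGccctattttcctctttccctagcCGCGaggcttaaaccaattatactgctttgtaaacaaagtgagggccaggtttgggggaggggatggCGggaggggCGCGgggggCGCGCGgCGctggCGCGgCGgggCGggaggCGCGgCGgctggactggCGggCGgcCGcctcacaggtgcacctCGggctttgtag
Foxa2 (chr2:148045949-148046198, minus strand): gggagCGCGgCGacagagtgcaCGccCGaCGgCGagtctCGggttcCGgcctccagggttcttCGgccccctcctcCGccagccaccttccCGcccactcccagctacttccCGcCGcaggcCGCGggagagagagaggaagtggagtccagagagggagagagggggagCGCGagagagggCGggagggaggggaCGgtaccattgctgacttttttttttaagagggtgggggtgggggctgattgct
Hhex (chr19:37434591-37434840, plus strand): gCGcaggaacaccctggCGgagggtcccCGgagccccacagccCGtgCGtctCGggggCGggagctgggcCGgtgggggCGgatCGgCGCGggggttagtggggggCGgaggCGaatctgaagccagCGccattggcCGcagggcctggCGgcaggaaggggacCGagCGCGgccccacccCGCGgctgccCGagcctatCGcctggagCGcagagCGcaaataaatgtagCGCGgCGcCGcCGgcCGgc
Cxcr4 (chr1:128592300-128592549, minus strand): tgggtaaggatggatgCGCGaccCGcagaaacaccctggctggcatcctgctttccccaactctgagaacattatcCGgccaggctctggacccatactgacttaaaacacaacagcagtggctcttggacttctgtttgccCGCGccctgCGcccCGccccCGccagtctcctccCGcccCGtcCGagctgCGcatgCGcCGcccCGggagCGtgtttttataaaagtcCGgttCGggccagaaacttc
Cer1 (chr4:82885152-82885401, minus strand): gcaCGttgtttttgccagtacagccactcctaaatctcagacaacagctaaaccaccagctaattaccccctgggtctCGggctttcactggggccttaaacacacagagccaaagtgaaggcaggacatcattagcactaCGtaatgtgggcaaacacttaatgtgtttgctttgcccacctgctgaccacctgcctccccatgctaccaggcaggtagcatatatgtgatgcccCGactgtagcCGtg
Hnf4a (chr2:163506607-163506856, plus strand): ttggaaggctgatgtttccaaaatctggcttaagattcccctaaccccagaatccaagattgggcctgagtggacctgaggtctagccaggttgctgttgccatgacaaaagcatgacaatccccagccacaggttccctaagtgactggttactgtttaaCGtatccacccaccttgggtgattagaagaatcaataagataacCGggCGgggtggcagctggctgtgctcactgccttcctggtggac
Pdgfra (chr5:75152001-75152250, plus strand): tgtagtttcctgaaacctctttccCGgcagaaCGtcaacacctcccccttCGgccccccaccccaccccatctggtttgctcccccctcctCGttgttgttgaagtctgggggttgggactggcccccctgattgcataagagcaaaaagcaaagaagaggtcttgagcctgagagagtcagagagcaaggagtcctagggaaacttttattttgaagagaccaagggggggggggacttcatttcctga

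These 250 bases held 21 CpG at Foxa1, 20 at Foxa2, 32 at Hhex and 19 at Cxcr4, against 5 at Cer1, 3 at Hnf4a and 4 at Pdgfra. Over all 32851 windows, an interval overlapped 90.4%, 93.1% and 92.3% of those with 10 or more CpG in the 2iL, 48 h and 96 h lists, and 17.2%, 18.8% and 17.1% of those with fewer. Of the 6 endoderm windows with 10 or more CpG, 5 were overlapped in 2iL and 4 in each later list, and of the 4 with fewer, 0 were overlapped in any list. Both exceptions at the CpG-rich windows were at Foxa2, which had another 2 windows. The one at the end of the gene, with 12 CpG in its 300 bases, was overlapped in 2iL only, and the one farther inside, with 13, in none. The second window of Hnf4a, with 4 CpG, was under no interval either.

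Motifs of endoderm and other factors were counted in these windows, beside their share of all windows. On either strand, TGTTTAC, the core of FOXA sites, occurred in 1 of the 10 windows, that of Foxa1, and in 3.65% of all windows. In the Foxa1 sequence shown it reads gtaaaca. The sequence AGATAA, which zinc-finger factors such as GATA4 bind, occurred in 1 window each of Foxa2 and Hnf4a and in 11.2% of all windows. CTTTGAT, a TCF/LEF site, occurred in that same Foxa2 window, the one under no interval, and in 3.73% of all windows. SOX sites, written ACAATNG or CATTGTT, occurred in 0 of the 10 windows and in 10.5% of all. The same held for TGCAAAT, part of the octamer (0 of 10, 4.02% of all), and for the E-box CACGTG (0 of 10, 7.15% of all). GGGCGG, bound by SP and KLF factors, was in 7 of the 10 windows and in 35.7% of all. These windows belonged to Foxa1, Foxa2, Hhex, Cxcr4 and Hnf4a, with every Foxa2 window among them. This motif itself holds a CpG, and the windows were not matched to all others for CpG content. A match describes letters in a window and does not show binding.

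Within 1 kb of either end of the gene, an interval was listed for 6 of the 9 genes in 2iL, against 67.6% of all protein-coding genes. The figures were 6 of 9 against 69.7% at 48 h and 7 of 9 against 68.0% at 96 h, so most endoderm genes had an open end in the pluripotent culture, at about the rate of all genes. Foxa2, Sox17, Sox7, Hhex and Cxcr4 had one in every list. Cer1 had one in 2iL and at 48 h, and Foxa1 and Pdgfra at 96 h. The Foxa1 end concerned lay at -1.918 kb from its annotated start, and that start was under an interval in 2iL and at 48 h. Hnf4a had none in any list.

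The number of listed intervals went from 44 in 2iL to 49 at 48 h and 54 at 96 h, while the full lists became shorter. Foxa1 went from 5 to 7 to 8 intervals, Cxcr4 from 4 to 4 to 10, and Pdgfra from 9 to 8 to 11. Foxa2 held 12, 15 and 14, Hnf4a 4, 5 and 5, and Sox17 4 in each list. Sox7 went from 2 to 2 to 1, Hhex from 3 to 3 to 1, and Cer1 from 1 to 1 to 0. Between 48 h and 96 h the number thus went up at Cxcr4, Pdgfra and Foxa1 and down at Foxa2, Sox7, Hhex and Cer1. The stretch of genome in which an interval would be assigned to a gene ran from 20.7 kb for Cer1 and 29.1 kb for Sox7 to 204 kb for Foxa2, so the numbers are not comparable between genes.

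**Figure D1:**
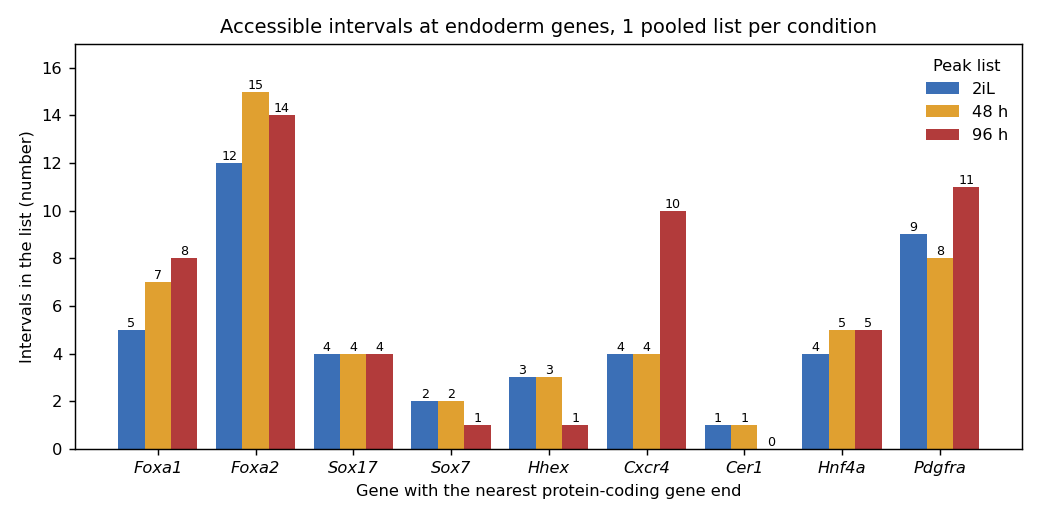
Number of listed intervals (vertical axis) at each of the 9 genes (horizontal axis) in the 2iL, 48 h and 96 h peak lists, with 1 pooled list per condition and no error. Cxcr4 goes from 4 to 10 between 48 h and 96 h, and Cer1 from 1 to 0.

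Regions were called lost between 2 lists when only the earlier list held them, and gained when only the later one did. From 2iL to 48 h, 12 of 44 endoderm regions were lost, 27.3% (95% interval 15.0 to 42.8), against 31.4% over all regions near genes, and 17 of 49 were gained, 34.7% (21.7 to 49.6), against 29.5%. Both shares were near those of all regions. From 48 h to 96 h, 12 of 49 were lost, 24.5% (13.3 to 38.9), against 29.7%, and 17 of 54 were gained, 31.5% (19.5 to 45.6), against 19.0%. Without Cxcr4 the last share was 20.5%, close to that of all regions, so the excess in this step rested on 1 gene. Among regions in the stronger part of their own list, above its median −log10 p, the gained share was 4.76% from 2iL to 48 h, against 9.9% of all such regions. From 48 h to 96 h it was 16.7% (4.74 to 37.4), 4 of 24 regions, against 4.0%, and all 4 lay at Cxcr4. The lost share in that step was 9.52% (1.17 to 30.4), 2 of 21 regions, against 8.06%.

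Between the ends of the time course, 16 of 44 regions were lost, 36.4% (22.4 to 52.2), against 43.1% over all regions, and 26 of 54 were gained, 48.1% (34.3 to 62.2), against 32.6%. Without Cxcr4 the gained share was 40.9%. Among the regions in the stronger part of their list it was 16.7% (4.74 to 37.4), 4 of 24, against 13.1% of all such regions. So there the excess was nearly gone, and all 4 gained regions lay at Cxcr4. The lost share there was 15.0% (3.21 to 37.9), against 25.2%. The excess of gains was seen close to the genes, and the difference between near and distant regions was not tested. Within 10 kb of a gene end, a limit chosen after the data were seen, 14 of 27 regions were gained, 51.9% (31.9 to 71.3), against 23.9% of all regions at that distance. They lay at Pdgfra (4), Foxa1 (3), Foxa2, Cxcr4 and Hnf4a (2 each) and Sox17 (1). Those at Foxa1, Foxa2 and Sox17 all had 96 h folds of 3.69 or less, up to the 5.31 percentile of that list. So did the Pdgfra regions at -2.2, -0.928 and 2.76 kb. At Cxcr4 and Hnf4a the folds ran from 4.87 to 14.1, and the Pdgfra region at -9.06 kb had 8.76. Farther out, 12 of 27 were gained, 44.4% (25.5 to 64.7), against 42.2%. The lost shares were 6 of 19 within 10 kb, 31.6% (12.6 to 56.6), against 32.4%, and 10 of 25 farther out, 40% (21.1 to 61.3), against 53.8%. Neighbouring regions of 1 gene are not independent, so the true uncertainty is wider than these intervals.

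**Figure D2:**
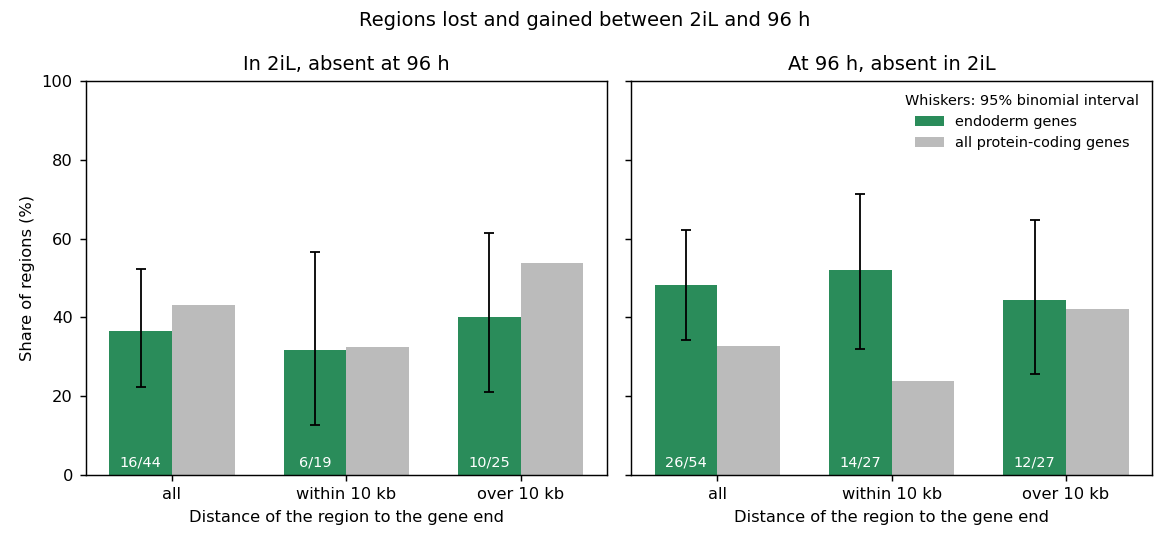
Share of regions in percent (vertical axis) that were in the 2iL list and absent at 96 h (left) or the reverse (right), for the endoderm genes (green, with the number of regions in the bar) and for all protein-coding genes (grey), by distance to the gene end. Whiskers are exact binomial 95% intervals. Gains within 10 kb stand at 51.9% for the endoderm genes and 23.9% for all genes.

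By presence in the lists, 27 of the 77 regions, 35.1% (24.5 to 46.8), were in all 3, against 38.2% of all regions near genes. Foxa2 held 11 of these 27. Regions listed at 96 h only numbered 16, or 20.8% (12.4 to 31.5), against 9.43% of all regions, and 8 of the 16 lay at Cxcr4, 5 at Pdgfra, 2 at Foxa1 and 1 at Hnf4a. A further 11 regions were listed in 2iL only, 7 at 48 h only, 10 at both 48 h and 96 h, 5 in 2iL and at 48 h, and 1 in 2iL and at 96 h. Of the 77 regions, 19 lay inside the endoderm gene they were assigned to. In 35, an end of another kind of gene, such as a long non-coding RNA, was closer than that of the endoderm gene.

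**Figure D3:**
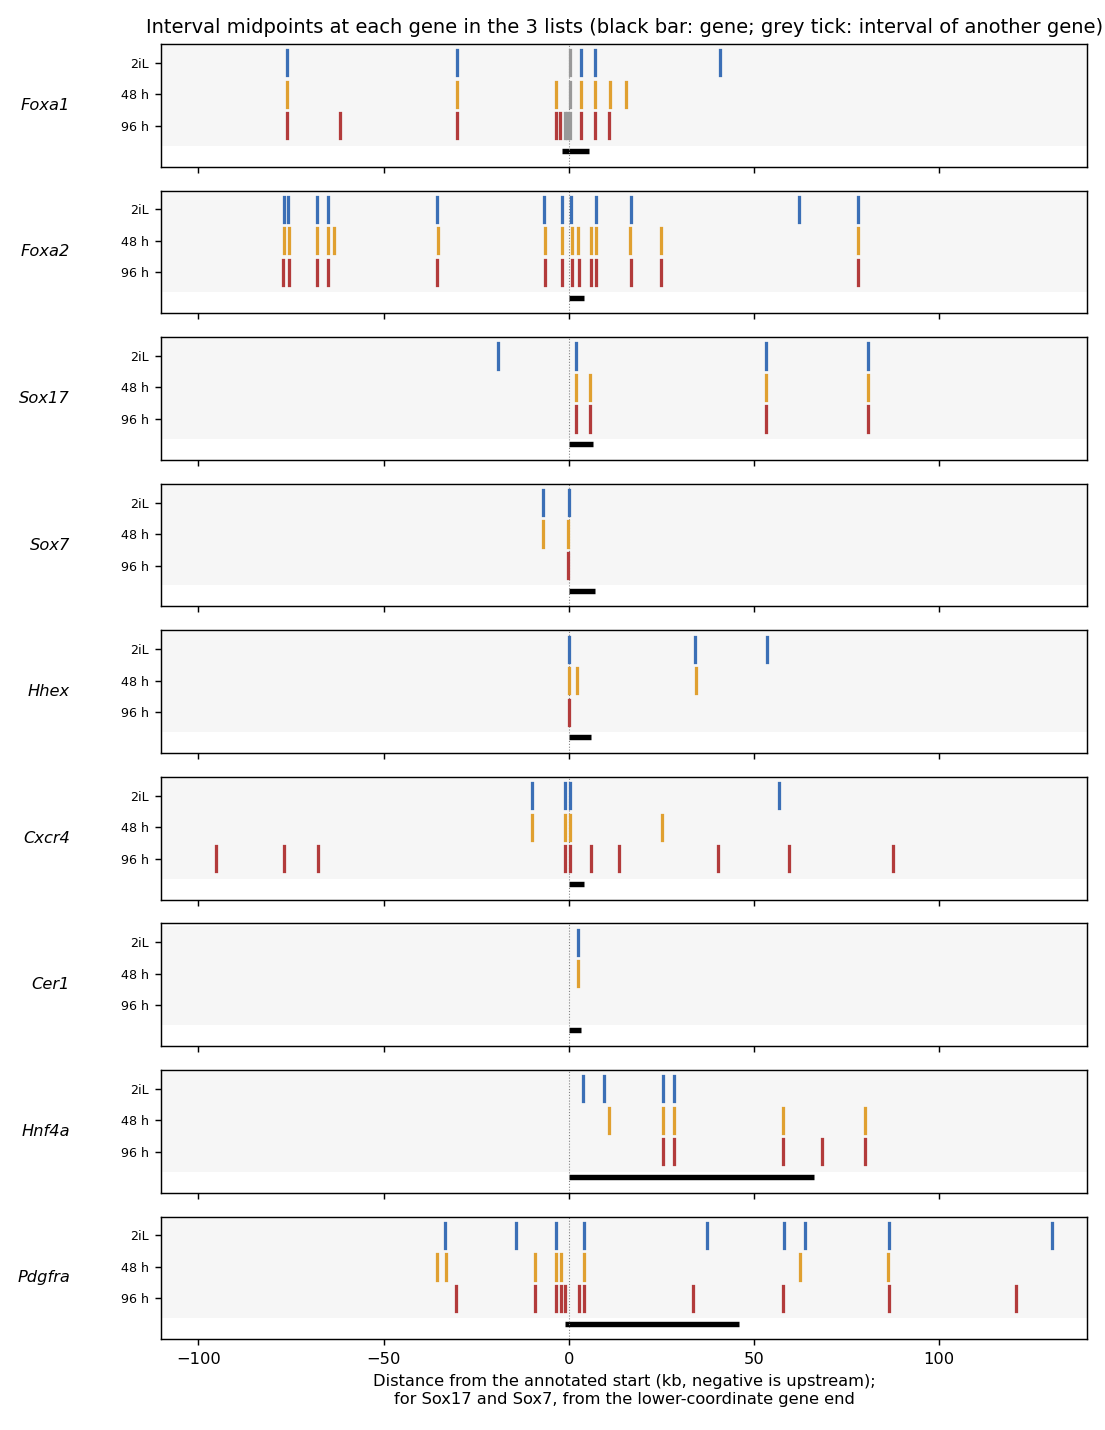
Midpoints of the listed intervals at each gene, as ticks in 1 row per list, by distance from the annotated start in kb (horizontal axis, negative is upstream) or, for Sox17 and Sox7, whose strand was not given, from the lower-coordinate end. Black bars are the genes and grey ticks intervals assigned to an overlapping gene. Foxa2 keeps most of its ticks through the 3 rows, and Cxcr4 has ticks far upstream in the 96 h row only.

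How strongly the intervals were enriched was read from 2 further quantities. The fold enrichment is the authors' value for a summit over their local background. From it and the −log10 p, the pileup at the summit and the local background, both in tags, were recovered for every interval. The most frequent background, a measure of depth, was 14.2, 15.2 and 13.99 tags in the lists for 2iL, 48 h and 96 h, and a pileup was scaled by it before ratios were taken. By this measure the 48 h list was 1.085 times and the 2iL list 1.015 times as deep as that at 96 h, while the median background over all intervals was 23.3, 24.8 and 21.0 tags. This use of pileups was added after the data were seen. The median fold of the endoderm intervals was 7.93, 6.86 and 7.23 in the 3 lists, against 8.29, 8.14 and 8.79 over the full lists. Their folds ran from 1.93 to 20, and 21 of 44, 19 of 49 and 20 of 54 were above the median of their list.

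In the 28 endoderm regions listed both in 2iL and at 96 h, the scaled pileup at 96 h was 1.41 times that in 2iL at the median, against 1.2 times over the 45591 such regions near all genes. It was at least 2 times as high in 6 of the 28, against 11.8% of all, and at most 0.5 times in 3, against 9.48%. Close to the genes the direction was uniform. All 13 regions within 10 kb of a gene end, at 7 genes, had a higher scaled pileup at 96 h, against 72.8% of all regions at that distance, with a median ratio of 1.81 against 1.27. In 5 of the 13 it was at least 2 times as high, against 12.0% of all. In 12 of the 13, all but the one at the start of Hhex, the Poisson 95% intervals of the unscaled pileups lay apart, against 54.8% of all. Over 10 kb away, 10 of 15 regions had a higher scaled pileup and the median ratio was 1.12, against 1.05 for all regions there. The 3 regions at 0.5 times or less were all among these distant ones, 2 at Foxa2 and 1 at Pdgfra. Regions of 1 gene lie close enough to share their surroundings, so the 13 are not independent observations.

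**Figure D4:**
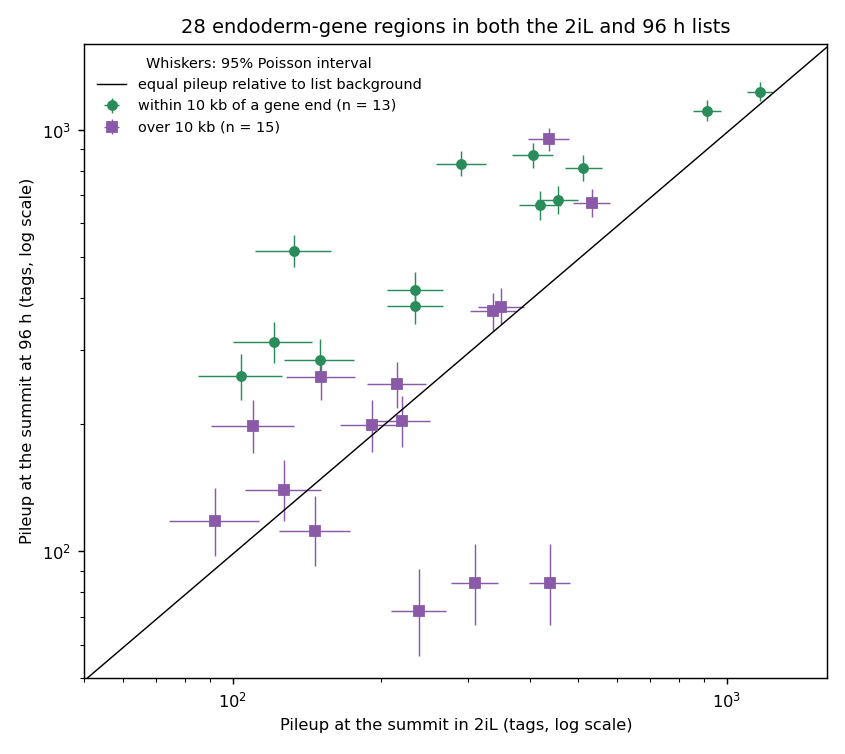
Pileup in tags at the summit in 2iL (horizontal axis) and at 96 h (vertical axis), both on log scales, for the 28 endoderm regions in both lists. Whiskers are Poisson 95% intervals, the line marks equal pileup relative to the list background. All 13 regions within 10 kb of a gene end (green circles) lie above the line, and 3 of the 15 distant regions (purple squares) lie far below it.

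The fold alone gave another picture near the genes, where the local background was higher as well. In 7 of those 13 regions the fold was lower at 96 h while the scaled pileup was higher, against 21.0% of all regions within 10 kb. The scaled background was higher at 96 h in 13 of 13, against 64.6% of all, and at least 1.5 times as high in 10 of 13, against 22.9% of all. Its median over the 13 went from 49.6 to 97.7 tags, and over all regions at that distance from 40.5 to 46.5. At these loci, the recovered pileup and the recovered local background were thus both higher in the pooled 96 h samples. How that background was drawn is not known, and it may hold tags of the regions themselves. The 2 rises are therefore not separate observations, and tag density outside the regions was not measured.

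Foxa1 encodes a forkhead factor of early endoderm, lung and liver. Its gene lies at chr12:57540628-57548029. The strongest region near it lay inside the gene, 3.33 kb downstream of the annotated start (chr12:57542073-57543493), with pileups of 405 (367 to 446), 706 (655 to 760) and 870 (813 to 930) tags in 2iL, at 48 h and at 96 h. The 3 ranges did not overlap and the scaled ratio of 96 h to 2iL was 2.18, while the fold was 6.64, 7.12 and 7.13. A region just past the gene, at 7.09 kb, went the same way, from 234 to 320 to 417 tags. Upstream, a region at -3.43 kb was listed from 48 h on (folds 4.48 and 3.69), and one at -2.46 kb at 96 h only (fold 2.37). By contrast a region at -76.1 kb stayed level, with 127, 132 and 140 tags. The region of highest fold, at -30.1 kb (chr12:57575787-57576734), had folds of 16.8, 18.0 and 19.3. The 1 region lost, at 40.8 kb, had a fold of 14.7 in 2iL.

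The interval at the Foxa1 start was not counted above, because an end of Ttc6, a gene that overlaps Foxa1, was nearer to its midpoint. It covered the annotated start in 2iL and at 48 h, and its 96 h counterpart ended 0.006 kb short of it. These intervals had folds of 4.66, 2.16 and 2.71. The pileup was 254 (224 to 287), 226 (197 to 257) and 344 (309 to 382) tags, over a local background that went from 53.7 to 104 and 126 tags. By the lists, the start itself was therefore open in 2iL and at 48 h, and just outside an interval at 96 h.

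Foxa2 encodes the forkhead factor of node, floor plate and definitive endoderm, and its gene lies at chr2:148042877-148046969. Of its 16 regions, 11 were in all 3 lists. The region over one of its annotated starts (chr2:148045716-148047005) had pileups of 419 (380 to 461), 917 (859 to 978) and 663 (613 to 715) tags, and the highest value at 48 h stood apart from both others. Its fold went from 9.16 to 8.11 and 5.49, as the background went from 44.8 to 112 and 120 tags. A region at -6.39 kb was likewise highest at 48 h, with 150, 670 and 284 tags and folds of 7.44, 9.65 and 5.36. The one at -1.92 kb was higher at each later time, going from 290 to 518 to 832 tags, with a scaled ratio of 2.91. Downstream, at 7.38 kb, the pileup went from 104 to 276 and 260 tags. Around Foxa2, then, the listed regions near the gene were higher at 48 h and 96 h than in 2iL, with no common order between the later 2 times.

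Far from the gene, 2 Foxa2 regions had the opposite course. At -75.7 kb (chr2:148122224-148123140) the pileup was 438 (398 to 481), 120 (99.5 to 143) and 84 (67.0 to 104) tags and the fold 17.5, 7.48 and 5.67. The decline at this site came within the first 48 h. At 78.0 kb (chr2:147968413-147969427) the pileup was 309 (276 to 345), 275 (243 to 309) and 84 (67.0 to 104) tags and the fold 18.3, 17.1 and 5.67, so that here the drop came between 48 h and 96 h. The scaled ratios of 96 h to 2iL were 0.195 and 0.276. Between them, a region at -67.9 kb with the highest Foxa2 fold in 2iL stayed listed with folds of 19.8, 15.0 and 16.9. Regions at 24.9 kb, 6.07 kb and 2.5 kb were listed from 48 h on, and 1 region, at 62.0 kb, was listed in 2iL only. The region inside the gene at 2.5 kb entered the lists with folds of 2.41 and 2.04 on a background of 132 and 146 tags, at the 0.551 and 0.141 percentiles of all folds in those lists.

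Sox17 and Sox7 encode SRY-box factors of the same subgroup, which act in endoderm and in blood vessels. No strand was given for them, so distances run from the end with the lower coordinate. The Sox17 gene, at chr1:4490928-4497426, carried a broad region inside it (chr1:4491670-4493887) with pileups of 513 (470 to 559), 819 (764 to 877) and 813 (758 to 871) tags. Both later values stood above that in 2iL, and the fold, at 6.28, 5.58 and 6.15, did not show this. A region at 5.75 kb was listed from 48 h on, with folds of 1.93 and 2.46. The first of these was the lowest fold of any endoderm interval. The region with the highest Sox17 fold lay 80.8 kb away (chr1:4571252-4572258), with 437 (397 to 480), 662 (613 to 714) and 951 (892 to 1010) tags and folds of 16.0, 17.5 and 19.6. It was the 1 distant region among the 15 with a pileup at least 2 times as high at 96 h, at a scaled ratio of 2.21. A region at 53.3 kb had like values in 2iL and at 96 h, with 191, 271 and 199 tags in the 3 lists, and 1 at -19.0 kb was listed in 2iL only.

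Sox7, at chr14:63943706-63950732, had 2 regions. The one over its lower end (chr14:63942743-63944340) held 121 (100 to 145), 233 (204 to 265) and 314 (280 to 351) tags, in 3 ranges that did not overlap. Its fold was 5.17, 5.18 and 6.31 and its scaled ratio 2.63. The other, at -7.04 kb, went from 102 to 254 tags between 2iL and 48 h and was not listed at 96 h. The 2 regions thus parted after 48 h.

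Hhex encodes a homeobox repressor of anterior endoderm, liver and thyroid. The region over its start (chr19:37433914-37435707) had the highest pileup of all the endoderm regions in each list, at 1168 (1100 to 1240), 1232 (1160 to 1300) and 1234 (1170 to 1300) tags, with folds of 13.1, 11.1 and 12.5. The 3 ranges overlapped, and no difference between the conditions was detectable. At 96 h this was the only Hhex region listed. The 3 others were a region at 34.2 kb with folds of 6.41 in 2iL and 5.81 at 48 h, one at 53.5 kb in 2iL only (fold 7.24), and one inside the gene at 48 h only (fold 2.46).

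Hnf4a encodes a nuclear receptor of visceral endoderm, liver and gut. Neither of its annotated starts was within 1 kb of an interval in any list. The nearest interval to the first start, assigned to any gene, was 3.13 kb away in 2iL, 3.3 kb at 48 h and 13.2 kb at 96 h. Its 2 regions common to all lists lay inside the gene at 25.4 kb and 28.4 kb. The latter (chr2:163534938-163535591) had the highest Hnf4a folds, at 17.4, 14.8 and 14, with pileups of 350, 466 and 381 tags and a scaled ratio of 1.1. At the site at 25.4 kb the ratio was 1.18. A nearer end of Hnf4aos, the antisense gene, lay beside both. Regions at 3.81 kb and 9.41 kb were listed in 2iL only, with folds of 6.55 and 6.71. Those at 57.8 kb and 79.8 kb were listed from 48 h on, with folds of 6.37 and 9.67 for the first and 5.81 and 7.34 for the second. A region at 10.7 kb was listed at 48 h only (fold 4.64), and one at 68.5 kb at 96 h only (fold 4.87). Sites in 2iL only thus lay in the first part of the gene, as did the one listed at 48 h only. Sites listed from 48 h on lay near its end and beyond.

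Cxcr4 encodes the receptor for the chemokine CXCL12 and is transcribed in many cell types besides endoderm. The region over its start (chr1:128590950-128592770) had pileups of 455 (414 to 499), 402 (364 to 443) and 683 (633 to 736) tags, and folds of 8.8, 8.23 and 9.6. The value at 96 h stood above both earlier ones. Its neighbour at -0.985 kb had 234, 228 and 383 tags, again with the same order. All the other 8 intervals of the 96 h list at Cxcr4 were absent from both earlier lists. The strongest lay 77.0 kb upstream (chr1:128668886-128669739), with a fold of 20 and a pileup of 307 (274 to 343) tags, which was the highest fold of any endoderm interval. Others were at -95.2 kb (fold 15.6), 13.6 kb (fold 14.1), 6.07 kb (fold 10.4) and 40.3 kb (fold 10.1). The remaining 3, at 59.4 kb, 87.6 kb and -67.8 kb, had folds of 7.94, 5.74 and 4.74. These new sites thus ran from strong to weak and lay on both sides of the gene. In the other direction, the region at -10.1 kb had folds of 11.2 and 5.07 in 2iL and at 48 h and was not listed at 96 h, and the one at 56.7 kb was listed in 2iL only (fold 10).

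Pdgfra encodes a receptor for platelet-derived growth factors that marks primitive endoderm and also mesoderm. It had the most regions, 18, of which 3 were in all lists. Inside the gene, 4.12 kb past the annotated start (chr5:75155695-75157040), the pileup was 912, 857 and 1111 tags. The fold there went from 13.9 to 9.26 and 8.82, while the background went from 64.8 to 91.7 and 125 tags. Upstream, the region at -3.53 kb (chr5:75148303-75149137) held 133 (111 to 158), 373 (336 to 413) and 517 (473 to 564) tags. Its scaled ratio of 3.95 was the highest of the 28 shared regions. Its fold moved only from 5.05 to 5.89 and 6.14, over a background of 25.5, 62.5 and 83.4 tags. Around it, regions at -9.06 kb and -2.20 kb were listed from 48 h on, and those at -0.928 kb and 2.76 kb at 96 h only, with folds of 2.45 and 2.01. Thus the stretch around the start gained listed sites on both sides, although no interval lay over the start itself.

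Losses at Pdgfra lay elsewhere. A region inside the gene at 37.4 kb (chr5:75188957-75190246) had a fold of 14.1 and a pileup of 491 (449 to 536) tags in 2iL, and was in neither later list. It had the highest −log10 p of all the endoderm regions lost from the 2iL list. Past the gene, a region at 58.0 kb had 238 tags in 2iL and 72 at 96 h, a scaled ratio of 0.307, and was not listed at 48 h. A region at -33.4 kb, with folds of 8.67 and 12.9, was not listed at 96 h.

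Cer1 had a single region, inside the gene 2.38 kb from its start (chr4:82882557-82882983). Its fold was 6.71 in 2iL and 7.48 at 48 h, with pileups of 101 (82.3 to 123) and 120 (99.5 to 143) tags, and it was not listed at 96 h. Its values were modest, below the median fold of both lists. At 96 h the nearest interval to the Cer1 start, of any gene, was 25.1 kb away.

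**Figure D5:**
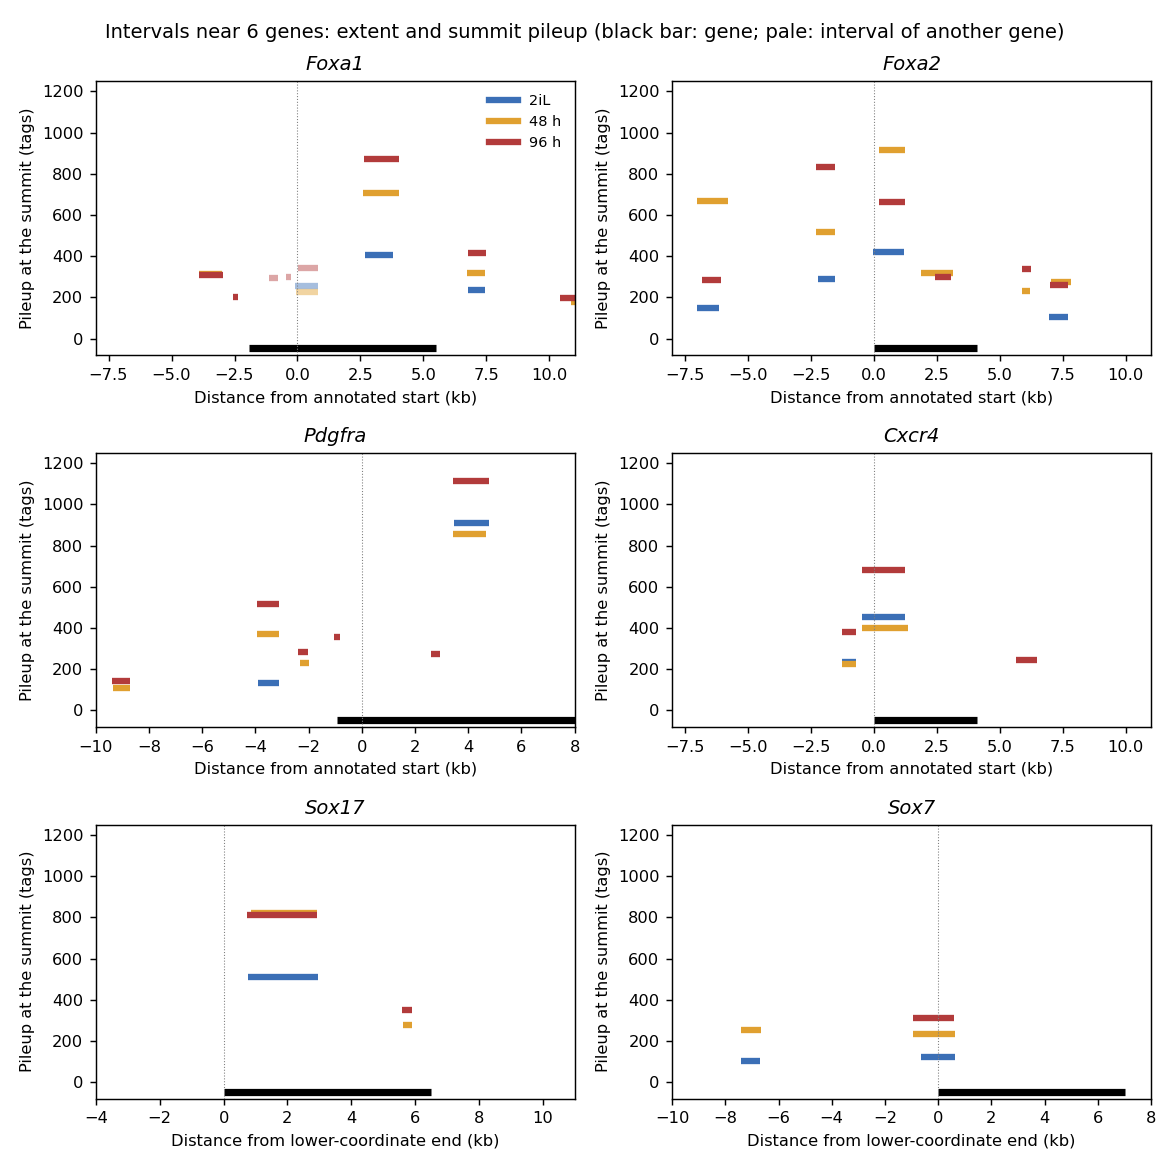
Extent (horizontal axis, kb from the annotated start, or from the lower-coordinate end for Sox17 and Sox7) and summit pileup in tags (vertical axis) of the intervals near 6 genes in the 3 lists. The black bar is the gene, and pale lines at Foxa1 are intervals assigned to Ttc6. In the stretches drawn, the 96 h line stands above the 2iL line wherever both lists hold a region, as at -3.53 kb of Pdgfra (517 and 133 tags), and the Foxa2 start region is highest at 48 h (917 tags).

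Other genes of the endoderm programme were counted in the same way between 2iL and 96 h. At 10 further endoderm transcription factors, 40 of 83 regions were gained, 48.2% (37.1 to 59.4), and 19 of 62 lost, 30.6% (19.6 to 43.7), beside the same background of 32.6% gained and 43.1% lost. Gains outnumbered losses at 6 of these genes and losses gains at 1. Gata4, a zinc-finger factor of extraembryonic endoderm and heart, gained the most, 8, and lost 1, and Gsc, a homeobox gene of the organizer, lost the most, 8, and gained 6. At 8 gut tube and pancreas factors, 35 of 65 regions were gained, 53.8% (41.0 to 66.3), and 10 of 40 lost, 25.0% (12.7 to 41.2). Sox9 gained the most, 11, and lost 3. Several of these factors, Sox9 among them, also act in neural tissue.

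The products of extraembryonic endoderm had a different balance. At 16 such genes, 33 of 86 regions were gained, 38.4% (28.1 to 49.5), and 44 of 97 lost, 45.4% (35.2 to 55.8) and both of these intervals include the background share. Gains outnumbered losses at 6 genes and losses gains at 6. Laminin genes showed both courses, with 15 regions lost and 3 gained at Lamc1 and 4 lost and 6 gained at Lamb1. The difference between these lists was not tested.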

How the data were processed

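Peaks were analysed from 3 lists deposited by the authors on mm10, 1 for both samples of each group per the labels. Tools listed in the submitters' processing notes are BWA, Picard, SAMtools and bcl2fastq 2.20.0.422. The peak caller and its settings, any read shift and any removal of duplicates, each of which could change which weak intervals are listed, were not given in the sources used here. Per the labels' protocols, libraries had 10 PCR cycles and fragments of 200 to 700 bp. The deposited columns are a score, a fold enrichment ratio, −log10 p, −log10 q and a summit offset, and the score and −log10 q were not used. An interval took its summit with the highest −log10 p.

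Intervals overlapping by at least 1 bp were merged, and regions within 100 kb of a protein-coding gene end (RefSeq, GRCm38.p6) went to the nearest end. That table gives no exons, so parts of genes were not distinguished. The pileup k and background b were solved from fold = (k + 1) / (b + 1) and a Poisson tail for −log10 p. A whole k, within 0.02 tags, fitted 100% of intervals. The solution was tested on simulated data made with the same formulas. Shares have Clopper-Pearson and pileups Poisson 95% intervals. The formulas were inferred from the values and not from a stated caller.

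The genes and lists were chosen with earlier results of these data known. Regions named were those nearest each start, of highest fold, or strongest among the lost and gained, with others added after their values were seen. Alternatives changed the overlap, list length, threshold, position, distance limit, gene assignment and member genes. Python 3.11.15, pandas 2.3.3 and SciPy 1.17.1 were used.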

Additional observations from a re-analysis of the deposited data

How the results depend on the processing

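No paired analysis was possible because each group had 1 pooled list, and no sample could be left out for the same reason. When a change counted only in the stronger part of its own list by −log10 p, the gained share was 4.76% from 2iL to 48 h (all regions 9.9%), 16.7% from 48 h to 96 h (4.0%) and 16.7% from 2iL to 96 h (13.1%). The lost share was then 9.52% from 48 h to 96 h (8.06%) and 15.0% from 2iL to 96 h (25.2%). Each gained share of 16.7% was 4 of 24 regions, all at Cxcr4. Gene ends within 20 kb left 24, 30 and 31 intervals in the 2iL, 48 h and 96 h lists. With a pileup ratio of 1.5 in place of 2, 14 regions were higher at 96 h. Both pileup alternatives were chosen after seeing the data. Over the 16 alternatives, the gained share from 2iL to 96 h ran from 16.7% to 57.5% and the lost share from 15.0% to 46.9%. For the main counts and shares, 112 recomputed values stayed within the limits set for them and 9 moved. For the interval counts of single genes, 115 stayed and 20 moved. These limits were wide. The gained share of 20.5% from 48 h to 96 h without Cxcr4 counted as staying, beside 31.5% with all genes. The tally is therefore no measure of how firm a result is. A weak interval near the limit may be missing from a list at this depth without being closed chromatin.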

Other observations

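Among the further endoderm genes, a few chosen after their values were seen had more listed regions at later times. Gata6, a zinc-finger factor of primitive endoderm, went from 4 to 7 to 9 regions over the 2iL, 48 h and 96 h lists, and Gata4 from 5 to 9 to 12. Eomes, a T-box factor of the primitive streak and definitive endoderm, went from 10 to 11 to 13. Prox1, a homeobox factor of liver, lymphatic vessels and neural progenitors, went from 4 to 13 to 11, and Nkx2-1, a factor of lung, thyroid and forebrain, from 4 to 8 to 10. Pdx1, of pancreas, had 2, 5 and 2 regions, so the 3 added at 48 h were not listed at 96 h. Lama1, a laminin chain of basement membranes, went from 12 to 7 to 7, and Lamc1 from 18 to 11 to 6.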
